A study of Homo sapiens with 12 samples.

Results

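The 2 chromosome segments described here are the end of the short arm of chromosome 19, band 19p13.3, and the end of the long arm of chromosome 17, band 17q25.3. Members are KDM2B peaks with a midpoint in the first 6.9 Mb of chromosome 19 or from position 74900001 to the end of chromosome 17 (build hg19). They number 2425 of the 79473 peaks in the 7 lists, and 932 of the 29071 regions obtained when peaks of all lists that overlap by at least 1 bp are merged. Of these regions, 537 lie in 19p13.3 and 395 in 17q25.3. The limit on chromosome 17 takes in part of the neighbouring band: the hg19 band table starts 17q25.3 at position 75300001, and 24 of the peaks and 11 of the regions lie in 17q25.2. The name 17q25.3 is used below for the whole stretch to the chromosome end.

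Chromatin bound by KDM2B was immunoprecipitated and sequenced (ChIP-seq) in 7 established human leukaemia cell lines, for which the labels give no treatment, with 1 KDM2B library and 1 peak list per line. DND41, HPB-ALL, JURKAT and SIL-ALL derive from T-cell acute lymphoblastic leukaemia (T-ALL). REH and SUP-B15 are B-lineage lymphoblastic lines (B-ALL), and K562 came from chronic myeloid leukaemia. These lineages are background knowledge of the named lines, and where 4 T-ALL lines are set against 3 other lines, the lines are the replicates of a lineage and no line has a replicate of its own. The lists ran to 12765 to 15304 peaks in T-ALL lines and 5942 to 8146 in the other lines. The read depth behind them is unknown, and so a peak that is missing from a list could not be told apart from a peak below that list's threshold.

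KDM2B demethylates histone H3 and recognises unmethylated CpG-rich DNA through a CXXC zinc finger. It brings a variant form of Polycomb repressive complex 1 (PRC1), with PCGF1, BCOR and RING1B, to CpG islands, and in blood cells it is known for roles in stem cell maintenance and leukaemia. Gene-dense chromosome ends are rich in CpG islands. Band 19p13.3 holds, among others, the gene of the B-cell transcription factor TCF3, that of the H3K79 methyltransferase DOT1L and that of the tumour suppressor kinase STK11. Band 17q25.3 holds, among others, the gene of the cytokine signalling inhibitor SOCS3 and that of the apoptosis inhibitor BIRC5. The gene table used (RefSeq, GRCh38.p14) is of another build than the lists, so peaks were not assigned to genes and these genes are background on the bands. Gene density could be checked for whole chromosomes only: in that table chromosome 19 had 7.24% of the protein-coding genes on 1.91% of the hg19 sequence, and chromosome 17 had 5.83% on 2.62%.

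The bands were crowded with KDM2B peaks in every line. They make up 0.426% of the hg19 sequence and held 2.18% to 4.27% of each list. The density was 36.9 peaks per Mb for DND41, 26.4 for HPB-ALL, 24.5 for JURKAT, 33.3 for SIL-ALL, 13.5 for K562, 24.8 for REH and 24.4 for SUP-B15. In the rest of the genome it was 4.69 peaks per Mb for DND41, 4.03 for HPB-ALL, 4.71 for JURKAT, 4.82 for SIL-ALL, 1.87 for K562, 2.54 for REH and 2.34 for SUP-B15. The ratio of band to rest averaged 7.71 ± 1.84 (SD, n = 7 lines), was lowest in JURKAT at 5.20 and was highest in SUP-B15 at 10.4. The bands were proposed with their peak numbers known, so these ratios are a description and were not tested. Covered sequence was also higher in the bands: peaks took up 0.618% (REH) to 1.13% (SUP-B15) of the bands, and 0.0654% (REH) to 0.153% (SIL-ALL) of the rest.

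Another gene-dense chromosome end and 2 gene-poor chromosomes put these densities in place. Band 16p13.3 had 3.04 peaks per Mb in HPB-ALL and 10.5 to 33.3 in the other lines. The range was wider there than the 13.5 to 36.9 peaks per Mb of 19p13.3 and 17q25.3. HPB-ALL, which was far below the other lines in 16p13.3, stood at 26.4 in the bands, above 4 of the other 6 lines. Chromosomes 4 and 18 had 0.932 to 3.11 peaks per Mb. In 19p13.2, the band next to 19p13.3, the lines had 8.14 to 20.9 peaks per Mb, and each line had fewer there than in 19p13.3.

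The bands took a smaller part of the T-ALL lists than of the other lists on average, but the lines overlapped. Both bands together held 3.26% of the DND41 list (Wilson 95% interval 2.99 to 3.56%), 2.73% of HPB-ALL (2.46 to 3.02%), 2.18% of JURKAT (1.95 to 2.42%) and 2.88% of SIL-ALL (2.62 to 3.15%). They held 2.996% of K562 (2.59 to 3.46%), 4.01% of REH (3.61 to 4.46%) and 4.27% of SUP-B15 (3.84 to 4.76%). Only K562, the myeloid line, fell within the T-ALL range, and both B-ALL lines stood above it. The mean was 2.76 ± 0.449% in T-ALL lines (SD, n = 4) and 3.76 ± 0.676% in the other lines (SD, n = 3). The difference of -1.002 percentage points did not pass a two-sided exact permutation test, which has 35 ways to divide the lines (p = 0.0857, adjusted p = 0.143 over 5 comparisons of lineages). With peaks of a list within 500 bp of each other counted once, it was -1.02 percentage points. The exact permutation p was then 0.0286, unadjusted and the smallest this design allows. It was 0.0571 with lists cut to equal length, with peaks from the median score of their list up, and with a common score floor. The intervals cover counting error only.

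In each band taken alone the mean share was also lower in T-ALL lines. In 19p13.3 the share was 1.82% for DND41, 1.32% for HPB-ALL, 1.04% for JURKAT and 1.496% for SIL-ALL, against 1.72% for K562, 2.21% for REH and 1.89% for SUP-B15. DND41 is the T-ALL line that overlapped the other lines here. The mean was 1.42 ± 0.325% in T-ALL lines (SD, n = 4) and 1.94 ± 0.251% over K562, REH and SUP-B15 (SD, n = 3; difference -0.516 percentage points, exact permutation p = 0.0857, adjusted p = 0.143). Lists were also cut to the 5942 top-scored peaks each, the length of the shortest list. The difference in 19p13.3 was then -0.788 percentage points and the exact permutation p was 0.0286, unadjusted. This p was also 0.0286 with peaks from the median score of their list up, and 0.0571 with the common score floor or close peaks joined. In 17q25.3 the share was 1.44% for DND41, 1.402% for HPB-ALL, 1.13% for JURKAT and 1.38% for SIL-ALL, against 1.28% for K562, 1.80% for REH and 2.39% for SUP-B15. SUP-B15 had the highest share of 17q25.3 peaks, and K562 lay among the T-ALL lines. The means were 1.34 ± 0.139% in T-ALL lines (SD, n = 4) and 1.82 ± 0.555% over K562, REH and SUP-B15 (SD, n = 3; exact permutation p = 0.143, adjusted p = 0.179). The difference of -0.486 percentage points was -0.204 without SUP-B15 and -0.759 without K562. In 17q25.3 the exact permutation p was 0.171 with equal lists and 0.0857 with close peaks joined. It was 0.2 with peaks from the median score of their list up and with the common score floor.

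**Figure D1:**
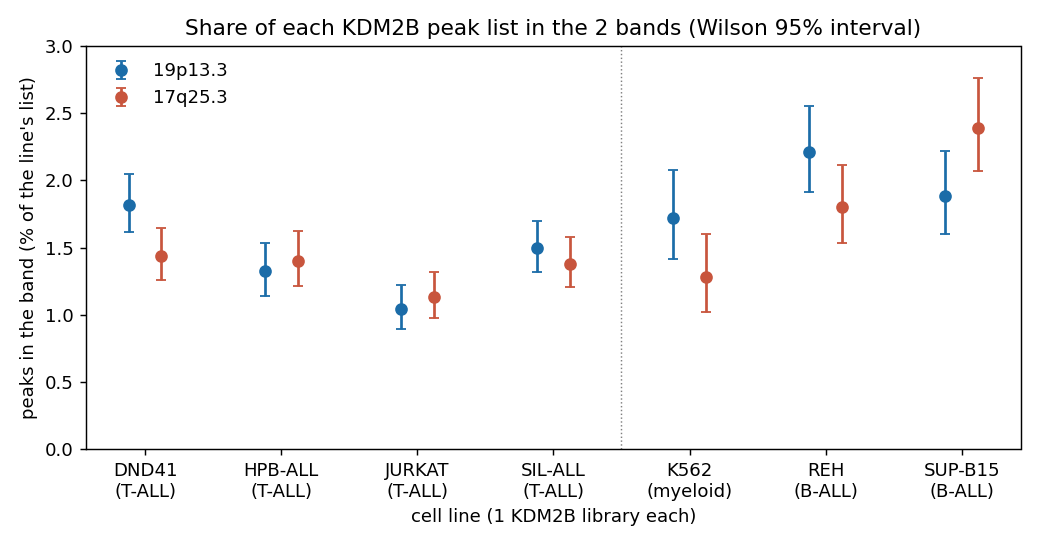
Share of each line's peak list (percent, vertical axis) that lies in 19p13.3 and in 17q25.3, by cell line, with T-ALL lines left of the dotted line and the other lines right of it; bars are Wilson 95% intervals of counting error. REH reached 2.21% in 19p13.3 and SUP-B15 2.39% in 17q25.3, and JURKAT was lowest in both bands, with 1.04% and 1.13%.

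The balance between the bands varied from line to line within each lineage. Peaks of 19p13.3 made up 55.9% of the band peaks for DND41, 48.6% for HPB-ALL, 48.0% for JURKAT and 52.0% for SIL-ALL, against 57.3% for K562, 55.0% for REH and 44.1% for SUP-B15. K562 and SUP-B15, both non-T lines, were the extremes. The means of 51.1 ± 3.63% (T-ALL, n = 4) and 52.1 ± 7.06% (others, n = 3) differed by less than the spread between lines (exact permutation p = 0.829), and the sign of the difference turned when JURKAT, K562 or REH was left out.

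Within each band the peaks gathered in a few stretches that recurred from line to line. In 19p13.3 the stretch from 1.0 to 1.5 Mb held the most peaks of any 0.5 Mb bin in 6 of the 7 lines, with 65 for DND41, 47 for HPB-ALL, 40 for JURKAT, 58 for SIL-ALL, 27 for K562 and 42 for REH. These were 23.3% to 27.8% of the 19p13.3 peaks of those lines. SUP-B15 departed from the others: its fullest bin was 2.0 to 2.5 Mb, with 41 peaks (28.9%), and it had 28 at 1.0 to 1.5 Mb. The 4 bins from 0.5 to 2.5 Mb together held 56.6% (DND41) to 71.1% (SUP-B15) of the 19p13.3 peaks. The first 0.5 Mb next to the chromosome end had 0 to 4 peaks in all lines but K562. K562 had 8 there, 7.84% of its 19p13.3 peaks. The bin from 5.0 to 5.5 Mb was a sparse one, with no peak for DND41 or SUP-B15, 1 for REH, 3 for SIL-ALL and K562, 5 for HPB-ALL and 8 for JURKAT. DND41, which had the most 19p13.3 peaks of all lines (272), thus had none in a bin where JURKAT, with 155 peaks in 19p13.3, had 8.

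In 17q25.3 the peaks were spread over several parts of the band. Over all lists the bins from 77.4 to 77.9 Mb and from 75.9 to 76.4 Mb had 143 and 110 peaks. They were the fullest bins outside the stretch chr17:78900001-80900000. This stretch held 56.7% of the 17q25.3 peaks of DND41, 67.0% of HPB-ALL, 51.8% of JURKAT and 53.1% of SIL-ALL, against 57.9% of K562, 38.1% of REH and 47.2% of SUP-B15. REH was the line whose fullest bin lay elsewhere, at 77.4 to 77.9 Mb, with 22 peaks. At 77.4 to 77.9 Mb DND41 had 27 peaks, HPB-ALL 13, JURKAT 28 and SIL-ALL 25, against 5 for K562, 22 for REH and 23 for SUP-B15. As shares of each line's 17q25.3 peaks these were 12.6% of DND41, 7.26% of HPB-ALL, 16.7% of JURKAT and 11.8% of SIL-ALL, against 6.58% of K562, 14.97% of REH and 12.8% of SUP-B15. K562 and HPB-ALL had the lowest shares. The last, shorter bin, which ends with the chromosome, had 10 peaks for REH, 6 for DND41 and SUP-B15, 3 for JURKAT and SIL-ALL, 1 for K562 and none for HPB-ALL.

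Windows of 100 kb gave a finer picture. Of the 69 windows in 19p13.3, 3 had no peak in any list and 18 had a peak of every line. Of the 63 windows in 17q25.3, 12 were empty in every list and 19 had a peak of every line. The fullest window of 19p13.3 was chr19:1200001-1300000, with 24 peaks for DND41, 18 for HPB-ALL, 12 for JURKAT, 19 for SIL-ALL, 14 for K562, 21 for REH and 12 for SUP-B15, or 120 over all lists against a median of 12 per window. The fullest of 17q25.3 was chr17:77700001-77800000, with 19 peaks for DND41, 8 for HPB-ALL, 15 for JURKAT and 18 for SIL-ALL, against 2 for K562, 11 for REH and 15 for SUP-B15. K562 had the fewest peaks there. The window directly followed a run of 6 windows, chr17:77100001-77700000, in which no list had a peak. The windows before and after that step were picked out after their values were seen. The mappability of the empty windows was not examined here.

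**Figure D2:**
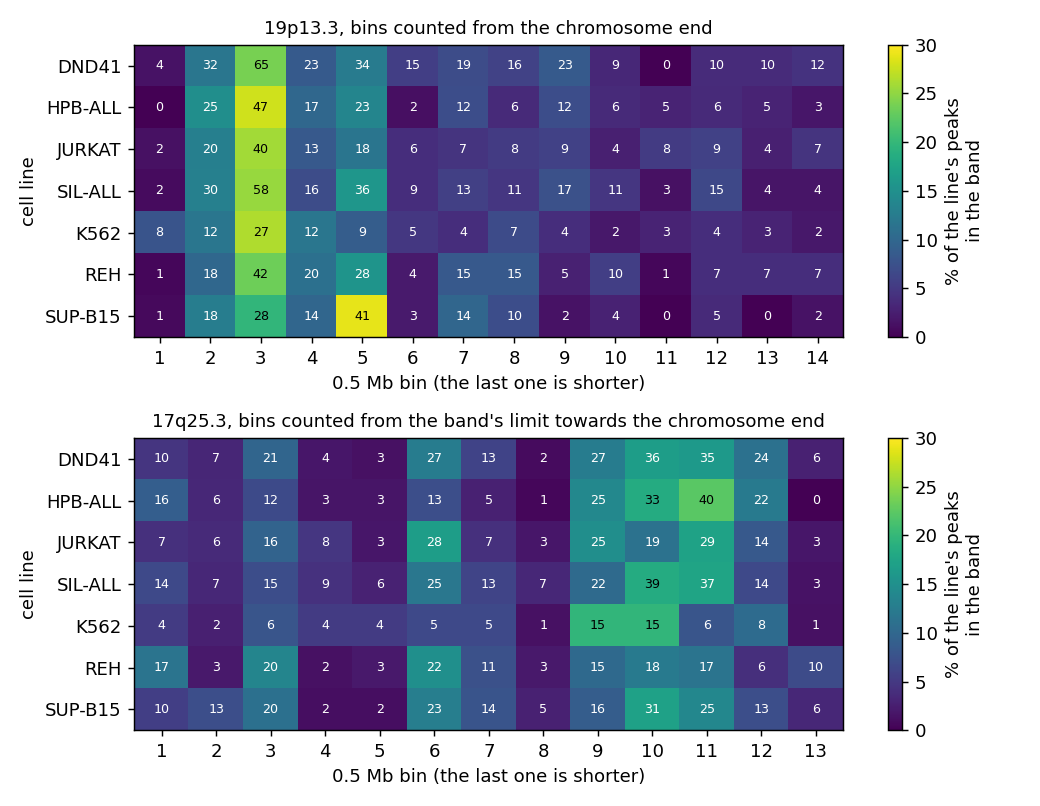
Peaks per 0.5 Mb bin in 19p13.3 (upper panel) and 17q25.3 (lower panel) for each line; printed numbers are peaks and colour is the percent of the line's peaks in that band. In 19p13.3 the third bin is the fullest in 6 lines and the fifth in SUP-B15, and in 17q25.3 bins 9 to 12 hold 38.1% (REH) to 67.0% (HPB-ALL) of the peaks.

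Peaks just inside and just outside the limits of the rule had overlapping ranges of score over the lines, but within most lines the inside peak ranked lower. Scores are read as percentiles within their own list (rank of the peak among all peaks of the line, from 0 to 100), because the lists have different thresholds. On chromosome 19 the last peak inside the limit lay 36.3 to 369 kb from it and stood at percentile 6.35 to 78.1, and the first peak outside lay 199 to 394 kb away at percentile 9.13 to 80.5. On chromosome 17 the first peak inside lay 65.6 to 378 kb from the limit at percentile 0.0457 to 80.8, and the last peak outside lay 35.1 to 167 kb away at percentile 7.59 to 89.6. Within a line, the inside peak ranked lower on chromosome 19 in all lines but JURKAT (70.8 inside, 9.13 outside). On chromosome 17 it ranked lower in all but REH (28.4 and 7.59) and SUP-B15 (76.2 and 57.8), most of all in SIL-ALL (0.0457 and 89.6). These are single peaks, often at the same place in several lines, so the lines are not separate observations. The outside peak of chromosome 19 started between positions 7198028 and 7198439 in DND41, SIL-ALL, K562 and REH. That of chromosome 17 started between 74864358 and 74864637 in JURKAT, K562, REH and SUP-B15. The contrast of inside and outside peaks was not tested.

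A small core of regions in the bands had a peak of every line. Peaks are merged through a chain of overlaps, so the lines of a region need not all have a base in common. At chr17:77782851-77787507, for example, the peaks of K562 covered 819 of 4657 bp. There were 20 such regions, 9 in 19p13.3 and 11 in 17q25.3. They are 2.15% of the 932 regions of the bands, where 2.44% of all merged regions had a peak of every line, so their share was near the background. Cutting all lists to equal length left 9 of this kind among 552 band regions (1.63%, all merged regions 2.48%). A common score floor of 80.03, the highest of the lists' lowest scores, left 8 among 661 (1.21%, all 1.29%). With peaks from the median score of their list up there were 8 among 463 (1.73%, all 1.90%). The foremost region was chr17:75953200-75956715, 3516 bp wide. Its best peak scored 1799 for DND41, 3064 for HPB-ALL, 1134 for JURKAT and 3100 for SIL-ALL, against 1134 for K562, 359 for REH and 424 for SUP-B15. The value 3100 was given to 24 peaks of the series exactly. In every list it stood among the highest peaks, from percentile 98.0 in SUP-B15 to 99.95 in SIL-ALL. K562 had a single peak that spanned the whole region, and SIL-ALL a single peak of 2542 bp, whereas REH had 5 peaks there that covered 2591 bp.

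The other regions of the core did not rank alike in all lines. In 17q25.3 the second was chr17:75368532-75370617 (mean percentile 89.8), from 68.9 in K562 to 98.9 in SIL-ALL. The third, chr17:79479063-79482548 (mean 88.8), scored 482 for DND41, 260 for HPB-ALL, 165 for JURKAT and 1375 for SIL-ALL, against 183 for K562, 109 for REH and 378 for SUP-B15. SIL-ALL ranked it highest, at percentile 98.98, and HPB-ALL lowest, at 79.5. The fourth was chr17:80055110-80056980 (mean 83.2), at percentile 98.7 in SIL-ALL and 57.3 in REH. The fifth, chr17:77782851-77787507 (mean 76.6), was the widest region of the core, 4657 bp, and was broken into many short peaks: 8 for DND41, 5 for HPB-ALL, 10 for JURKAT and 7 for SIL-ALL, against 2 for K562, 8 for REH and 7 for SUP-B15. REH ranked it at percentile 98.8, DND41 at 97.7 and SUP-B15 at 96.2, and K562 at 29.5 with a score of 65.5.

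In 19p13.3 the leading region was chr19:1249680-1253355 (3676 bp, mean percentile 92.9), inside the fullest window. Its best peak scored 1263 for DND41, 1271 for HPB-ALL, 146 for JURKAT and 283 for SIL-ALL, against 301 for K562, 381 for REH and 1020 for SUP-B15. JURKAT and SIL-ALL ranked it lower, at percentile 81.2 and 79.4, than the other lines did (92.3 to 99.7). A further core region, chr19:1248477-1249655, lay directly before it and had a mean percentile of 69.8. The second in rank, chr19:2049942-2051622 (mean 89.99), stood at 98.9 for JURKAT and 99.1 for SIL-ALL, and at 63.8 for K562. The next were chr19:3358339-3361260 (mean 88.4; 66.8 for HPB-ALL to 99.1 for SIL-ALL), chr19:3556297-3557962 (mean 87.2; 57.2 for K562 to 95.9 for DND41) and chr19:2269296-2271995 (mean 80.5; 31.6 for JURKAT to 98.8 for HPB-ALL).

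Over the 20 core regions, the median percentile was 95.4 for DND41, 86.8 for HPB-ALL, 81.9 for JURKAT and 91.2 for SIL-ALL, against 62.9 for K562, 81.6 for REH and 94.0 for SUP-B15. K562 had 2 of the 20 at or above percentile 90 and 7 below 50, while DND41 had 15 at or above 90 and 0 below 50. Percentiles depend on the length of a list, which was 15304 peaks in SIL-ALL and 5942 in K562, so they do not compare strength of binding between lines. They are also those of a line's best peak, which favours lines with several peaks in a region. At chr17:77782851-77787507, for example, DND41 had 8 peaks and K562 had 2.

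**Figure D3:**
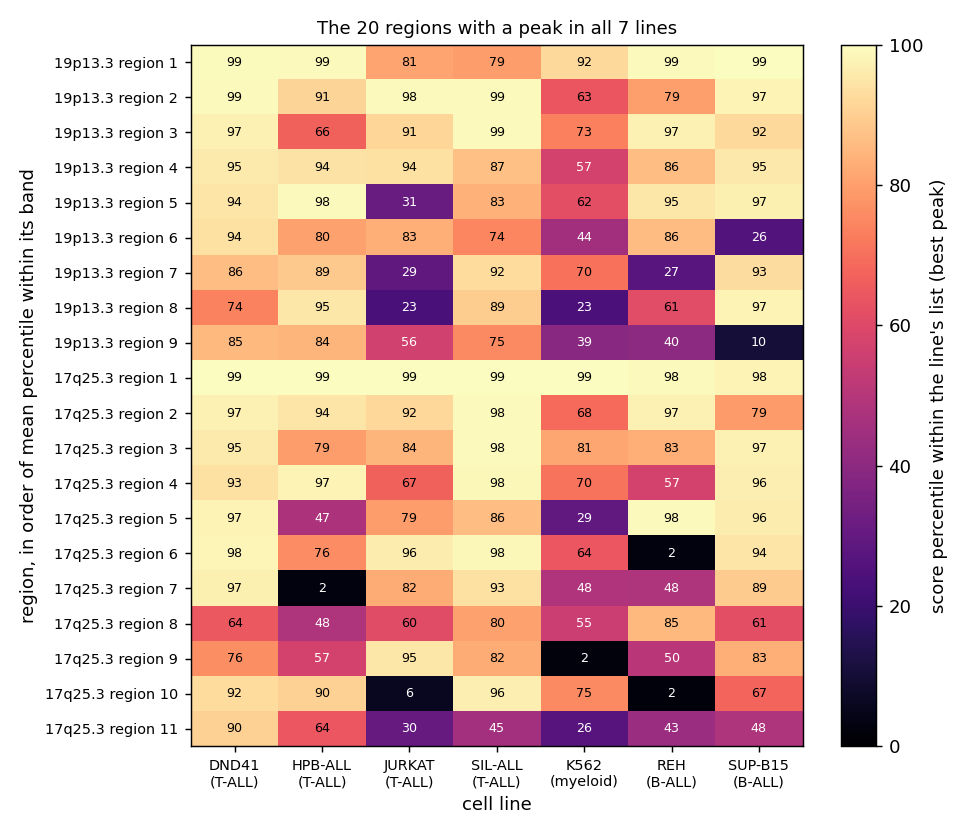
Within-list score percentile of the best peak (colour, and number rounded down) of the 20 core regions, which have a peak in all 7 lines. Rows are 9 regions of 19p13.3 (upper) and 11 of 17q25.3 (lower), in order of mean percentile within a band. T-ALL lines are left and the other lines right. The first 17q25.3 region stands at 98.0 or above in every line, and K562 has 7 regions below 50.

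Most regions in the bands belonged to fewer lines. A peak of 2 or more lines was present in 378 of the 932 regions (40.6%, Wilson interval 37.5 to 43.7%), against 41.8% of all merged regions. In 19p13.3 198 of 537 regions were shared (36.9%, 32.9 to 41.0%), and in 17q25.3 180 of 395 (45.6%, 40.7 to 50.5%), a difference that was not tested. Regions of 1 line alone numbered 554 (59.4%; 58.2% of all merged regions), 339 in 19p13.3 and 215 in 17q25.3. Regions became wider and stood higher with the number of lines in them. The median width was 192.5 bp for 1 line and 1717 bp for 7, and the median of the mean percentile was 31.1 for 1 line and 76.3 for 7. A merged region with more lines is wider by construction. The percentile is that of each line's best peak in the region, so it too can rise where a wide region holds several peaks of a line. In the rest of the genome the width was 196 bp for 1 line and 1695 bp for 7, and the percentile 30.4 for 1 line and 79.5 for 7.

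Regions exclusive to the T-ALL lines made up a smaller share of the bands than of the genome, and regions exclusive to the B-ALL lines a larger one. All 4 T-ALL lines and no other line had a peak in 10 regions, 1.07% of the band regions (Wilson interval 0.584 to 1.96%), where 2.25% of all merged regions were of this kind. REH and SUP-B15 and no other line had a peak in 22 regions, 2.36% of the band regions (1.56 to 3.55%), where 1.07% of all merged regions were of this kind. The T-ALL-only count was thus below the background share and the B-ALL-only count above it. K562, REH and SUP-B15 and no T-ALL line had a peak in 1 region (0.107%, background 0.193%). No test was made of these shares. The counts of T-ALL-only and B-ALL-only regions depended on how lists and regions were made. Each is given with its share of the band regions and the share over all merged regions under the same choice, except where a line was left out. With equal lists there were 4 T-ALL-only regions (0.725%, all 1.09%) and 25 B-ALL-only regions (4.53%, all 1.96%). With the common score floor there were 10 T-ALL-only regions (1.51%, all 3.39%) and 5 B-ALL-only regions (0.756%, all 0.527%), so that the order of these counts turned. With the upper part of each list, from its median score up, there were 6 T-ALL-only regions (1.296%, all 2.73%) and 9 B-ALL-only regions (1.94%, all 1.19%). Joining peaks within 500 bp of each other in a list gave 6 T-ALL-only regions (0.933%, all 2.87%) and 12 B-ALL-only regions (1.87%, all 1.13%). Merging peaks of different lists within 500 bp gave 5 T-ALL-only regions (0.893%, all 3.49%) and 14 B-ALL-only regions (2.5%, all 1.32%). In each of these 5 alternatives the T-ALL-only share was below, and the B-ALL-only share above, that over all merged regions. Leaving out a line loosens the T-ALL-only class by construction, and gave 24 regions without JURKAT, 19 without DND41, 18 without HPB-ALL and 21 without SUP-B15. The share over all merged regions was not computed for these counts, so whether they lie above or below the background is unknown.

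Among T-ALL-only regions those of 17q25.3 ranked higher. The first 3 were chr17:80408165-80408774 (mean percentile 79.5 over the 4 lines), chr17:79068306-79068947 (79.1) and chr17:80709863-80710872 (74.7). At chr17:80408165-80408774 the scores were 195 for DND41, 257 for HPB-ALL, 118 for JURKAT and 349 for SIL-ALL. It stood at percentile 72.7 (JURKAT) to 84.4 (SIL-ALL). The 6 T-ALL-only regions of 17q25.3 had a median mean percentile of 68.5, and the 4 of 19p13.3 of 36.7. The first 3 in 19p13.3 were chr19:1605516-1606084 (53.0), chr19:1268748-1269896 (47.0) and chr19:1438942-1439281 (26.3). In DND41 the first and the second of these stood at percentile 24.01 and 11.2, and in SIL-ALL the third stood at 0.601, near the end of the list.

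B-ALL-only regions were led by chr19:3687478-3688813, which scored 123 for REH and 350 for SUP-B15 and had a mean percentile of 92.1. It was wider in SUP-B15, which had a single peak of 1336 bp, than in REH, which had 2 shorter peaks. In 17q25.3 the first was chr17:76120328-76121316, which scored 101 for REH and 293 for SUP-B15 (mean 87.7), followed by chr17:80290456-80291088 (80.2) and chr17:81057279-81058121 (76.5). The region at chr17:80290456 was the first of 3 neighbours, with chr17:80291182-80291797 and chr17:80291799-80292189 directly after it, and these count as 3 of the 22. The leading region chr17:76120328-76121316 likewise had chr17:76121335-76121761 and chr17:76122045-76122565 close behind it. Another pair was chr17:75318105-75318716 and chr17:75318925-75319587. All these neighbours are counted singly in the 22 and in its Wilson interval, which treats regions as separate. The others named in 19p13.3 were chr19:2489231-2489703 (mean 59.3) and chr19:4916594-4917005 (56.3), which stood in the lower part of the REH list, at percentile 44.3 and 42.9. The region of K562, REH and SUP-B15 was chr17:79485848-79486699, with scores of 84.5 for K562, 141 for REH and 98.0 for SUP-B15. It lies close behind the core region at chr17:79479063-79482548.

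**Figure D4:**
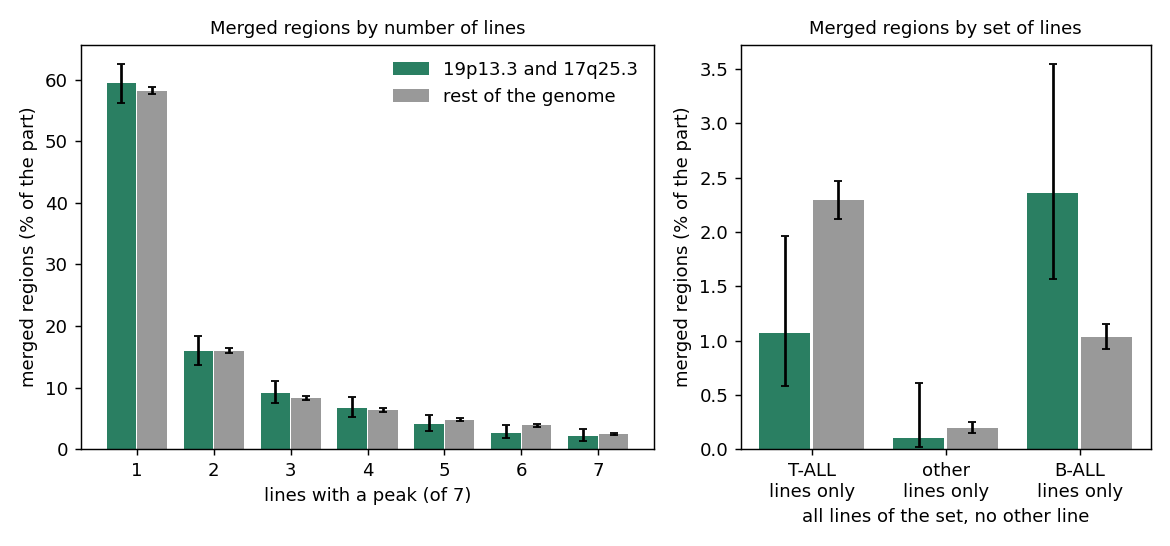
Merged regions by the number of lines with a peak (left, percent of the regions of each part) and by set of lines (right), for 19p13.3 and 17q25.3 (left bar of each pair) and the rest of the genome (right bar), with Wilson 95% intervals. T-ALL-only regions are 1.07% in the bands and 2.29% in the rest, and B-ALL-only regions are 2.36% in the bands and 1.03% in the rest.

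Each line also had band regions of its own, and SUP-B15 had more of them than its part in the rest of the genome. Of the 554 regions of 1 line alone, DND41 had 97, HPB-ALL 70, JURKAT 44 and SIL-ALL 98, against 59 for K562, 93 for REH and 93 for SUP-B15. SUP-B15 thus had 16.8% of them, and 8.71% of such regions in the rest, while JURKAT had 7.94% in the bands and 17.7% in the rest. In the bands and the rest these shares were 17.5% and 16.1% for DND41, 12.6% and 13.8% for HPB-ALL and 17.7% and 20.8% for SIL-ALL. For K562 they were 10.6% and 8.90%, and for REH 16.8% and 14.0%. SUP-B15 also had the largest share of its list in the bands (4.27%) and JURKAT the smallest (2.18%), so these contrasts are not separate. The strongest regions of 1 line alone were chr17:78912004-78912762 for JURKAT (score 495, percentile 98.1) and chr17:78449461-78452311 for K562 (score 570, percentile 97.8). That of SUP-B15 was chr19:2324289-2325623 (score 258, percentile 94.4). The last lies in the bin from 2.0 to 2.5 Mb that was fullest in SUP-B15. The first of REH was chr17:78819076-78819676 (percentile 87.9), that of HPB-ALL chr19:4108764-4109227 (87.4), that of SIL-ALL chr17:77774613-77775121 (85.5) and that of DND41 chr19:4471840-4472295 (83.0). Without replicate libraries, such a region cannot be told apart from a region of that library.

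From the side of the peaks, the share lying in a region with another line's peak was 80.1% for DND41, 79.9% for HPB-ALL, 86.4% for JURKAT and 77.7% for SIL-ALL, against 66.9% for K562, 71.6% for REH and 71.1% for SUP-B15. In the rest of the lists DND41 had 81.8%, HPB-ALL 81.9%, JURKAT 80.0% and SIL-ALL 77.1%, against K562 with 74.7%, REH with 70.8% and SUP-B15 with 80.2%. The difference of bands to rest was -9.11 percentage points for SUP-B15, -7.87 for K562 and 6.38 for JURKAT. The lines thus went both ways, 3 up and 4 down, and the mean difference of -1.83 percentage points did not pass the two-sided exact sign-flip permutation test over the 7 lines (p = 0.313, adjusted p = 0.313 over 4 comparisons). The lines share regions, so these 7 differences are not independent. The mean was -0.968 without HPB-ALL, -1.001 without K562, -2.83 without DND41 and -3.71 without REH, and -3.31 with the common score floor. With regions merged within 500 bp it was -0.0216. Where an overlap of 50% of both peaks was required, the mean difference was -4.92 percentage points and the exact permutation p was 0.0469.

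In regions that all lines but 1 shared, K562 and REH were the usual absentees, as in the rest of the genome. Of the 25 such regions, K562 was missing in 9, REH in 9, HPB-ALL in 4, JURKAT in 2 and SUP-B15 in 1, and DND41 and SIL-ALL in none. In the rest of the genome K562 was missing in 29.0% and REH in 32.8% of 1091, beside 36.0% each in the bands. SUP-B15 was missing in 16.5% of the rest and 4% of the bands, HPB-ALL in 9.44% and 16%, and JURKAT in 3.76% and 8%. DND41 was missing in 2.11% and SIL-ALL in 6.42% of the rest. With 25 band regions these shares rest on few regions, and they were not tested. SUP-B15 and REH had similar numbers of band peaks (322 in SUP-B15, 327 in REH), but those of SUP-B15 were wider. Their median width was 360.5 bp in SUP-B15 and 209 bp in REH, and they covered 1.13% and 0.618% of the bands. How number and width of peaks bear on the absences was not tested.

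T-ALL lines had more band regions in common with each other than with the other lines, a contrast that did not pass after adjustment. The phi coefficient, which is 1 when 2 lines have peaks in exactly the same regions, was taken over the 932 merged regions. Sequence in which no line has a peak is not counted, so 0 does not mark unrelated lines, and values are compared only with each other. It averaged 0.217 over the 6 T-ALL pairs (0.198 to 0.238), 0.0867 over the 3 pairs of other lines (0.0454 to 0.109) and 0.0552 over the 12 pairs between them (-0.0368 to 0.141). Pairs within T-ALL or within the other lines exceeded pairs between them by 0.119 (exact permutation p = 0.0286, one-sided, the smallest the design allows; adjusted p = 0.143), and by 0.0631 with the common score floor (exact permutation p = 0.0571). The same contrast is present over the whole genome, of which these regions are part, so it is not separate evidence. The T-ALL pairs stood at 0.151 to 0.258 in the rest of the genome, and JURKAT with SIL-ALL, the lowest T-ALL pair there (0.151), was the highest in the bands (0.238). REH with SUP-B15 had 0.106 in the bands and 0.209 in the rest, and K562 with SUP-B15 had 0.0454 in the bands and 0.205 in the rest. As shares of each line's own band regions, REH and SUP-B15 had 92 regions in common, 36.2% of those of REH and 34.7% of those of SUP-B15. DND41 and SIL-ALL had 164 in common, 49.2% of those of DND41 and 49.5% of those of SIL-ALL. These differences between bands and rest in single pairs were not tested.

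Band peaks were close to the other peaks of their list in score and width. The median percentile of the band peaks was 45.6 for DND41, 45.7 for HPB-ALL, 47.1 for JURKAT, 48.2 for SIL-ALL, 48.5 for K562, 48.7 for REH and 54.2 for SUP-B15, and 49.8 to 50.1 in the rest of the lists. It was lower in the bands in 6 of 7 lines, with SUP-B15 the exception. The mean difference was -1.78 ± 3.01 percentile points (SD, n = 7; exact sign-flip permutation p = 0.156, adjusted p = 0.292). Without SUP-B15 it was -2.81. The exact permutation p of 0.0313 is fixed by this choice, since SUP-B15 was the only line with a positive difference. With close peaks joined the mean difference was -3.49 (exact sign-flip permutation p = 0.0156, unadjusted). The exact sign-flip p was 0.172 with equal lists, 0.219 with peaks from the median score of their list up, and 0.266 with the common score floor. The highest 10% of a list had 9.65% of the band peaks for DND41, 7.47% for HPB-ALL, 7.74% for JURKAT and 6.14% for SIL-ALL, against 9.55% for K562, 8.87% for REH and 11.5% for SUP-B15. Only SUP-B15 thus had more than 10% of its band peaks there.

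Width differed more between lines than between the bands and the rest. The median width of band peaks was 192 bp for DND41, 239 bp for HPB-ALL, 231 bp for JURKAT, 215 bp for SIL-ALL, 524.5 bp for K562, 209 bp for REH and 360.5 bp for SUP-B15. In the rest of the lists DND41 had 214 bp, HPB-ALL 253 bp, JURKAT 240 bp, SIL-ALL 224 bp, K562 553 bp, REH 213 bp and SUP-B15 350 bp. Band peaks were narrower in 6 of 7 lines, again without SUP-B15, and the mean difference was -10.9 ± 12.6 bp (SD, n = 7; exact sign-flip permutation p = 0.0781, adjusted p = 0.292). Without SUP-B15 it was -14.4 bp. The exact permutation p of 0.0313 is again fixed by leaving out the only line with a positive difference. The mean difference was -39.9 bp with close peaks joined (exact permutation p = 0.0156, unadjusted). It was -27.1 bp with the upper part of each list from its median score up (exact permutation p = 0.0313, unadjusted). Peaks of 1 kb or more made up 10.7% of the band peaks and 19.1% of the other peaks in K562, the line with the widest peaks. The joining of peaks that lay within 500 bp of each other left 251 of 487 for DND41, 195 of 348 for HPB-ALL, 203 of 323 for JURKAT and 261 of 440 for SIL-ALL, against 138 of 178 for K562, 226 of 327 for REH and 222 of 322 for SUP-B15. Close neighbours were thus most frequent in DND41, where the bands lost 48.5% of their peaks and the rest of the list 44.5%.

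The bands differed in rank most in DND41. Its median percentile was 40.2 in 19p13.3 and 54.7 in 17q25.3, and 5.88% of its 19p13.3 peaks were among the highest 10% of the list, against 14.4% of its 17q25.3 peaks. JURKAT (43.0 and 50.7), SIL-ALL (47.2 and 51.9), REH (45.8 and 50.9) and SUP-B15 (52.5 and 57.0) went the same way, while HPB-ALL (46.3 and 41.8) and K562 (50.7 and 45.1) went the other way. The mean difference, 19p13.3 minus 17q25.3, was -3.79 ± 6.98 percentile points (SD, n = 7; exact sign-flip permutation p = 0.219, adjusted p = 0.292). Without DND41 it was -1.99. With close peaks joined it was -7.47 (exact permutation p = 0.0469, unadjusted). The exact sign-flip p was 0.156 with equal lists, 0.438 with peaks from the median score of their list up, and 0.391 with the common score floor.

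**Figure D5:**
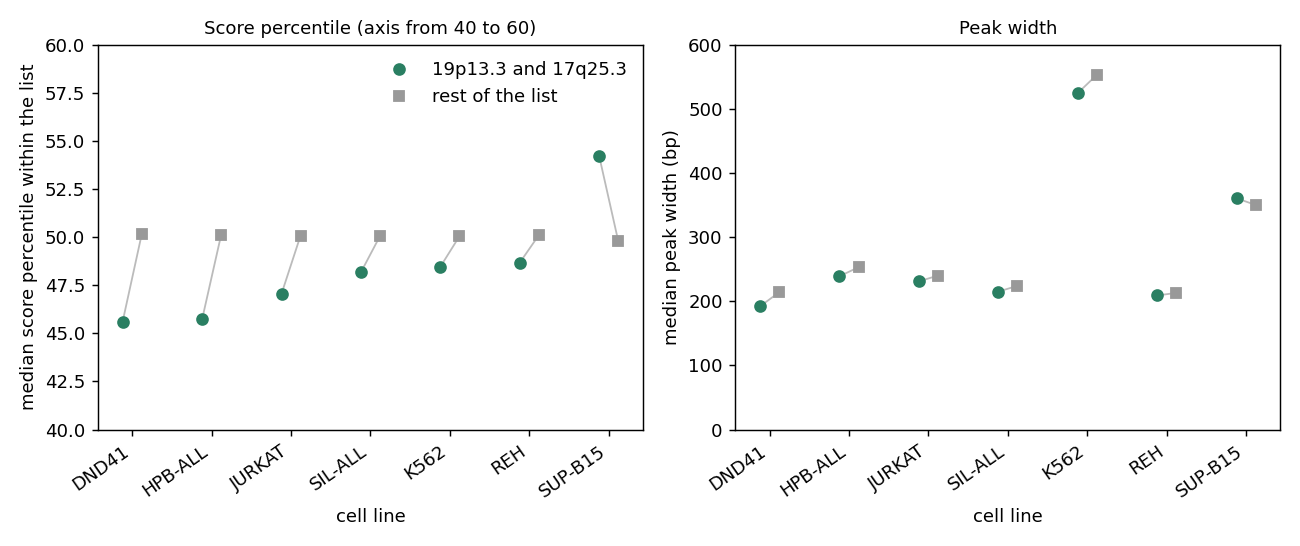
Median within-list score percentile (left panel; the axis runs from 40 to 60) and median peak width in bp (right panel) of peaks in 19p13.3 and 17q25.3 (circles) and of the rest of the same list (squares), by line. The circle is below the square in 6 of 7 lines in both panels, and above it in SUP-B15 (percentile 54.2 and 49.8; width 360.5 and 350 bp).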

How the data were processed

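Each deposited list holds positions, names and scores of peaks. Scores are the authors' deposited values, without a stated unit, and were used only as ranks within a list, apart from the common score floor, which assumes 1 scale. FastQC 0.10.1, Bowtie 1.1.1 and hg19 are named, per the submitters' processing notes. Peak names begin with MACS. Its version, threshold and control were not given in the sources used here. The 5 input samples, of HPB-ALL, SIL-ALL, K562, REH and SUP-B15, were not analysed here. The samples include no input for DND41 or JURKAT, and both are T-ALL lines. Whether this bears on their lists was not tested. The lowest scores of the lists run from 50 to 80.03.

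Peaks were placed by midpoint with the hg19 band table of circlize 0.4.16, merged across lists at 1 bp overlap, and counted with Python 3.11.15, numpy 2.4.6, pandas 2.3.3 and scipy 1.17.1. Percentiles are mid-ranks. T-ALL and other lines were compared by exact permutation over 35 splits (smallest p 0.0286), bands and rest by exact sign-flips over 128 assignments (smallest p 0.0156), with Benjamini-Hochberg adjustment within each family. Because each line has 1 library, the tests see the spread of lines and of libraries as a single quantity. Counting was tested on simulated lists. The members, lists and tests were chosen with earlier results of these data known. Regions are named by rank of mean percentile: per band the first 5 of all lines and the first 3 of each exclusive class, the first of each line alone, and the fullest window; other regions named were chosen after their values were seen. Sequence of the regions was not used here.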

Additional observations from a re-analysis of the deposited data

Results flagged for a closer look

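Of 21 values per line that were examined for a line far from the other 6, 2 were found, where chance alone gives about 1.05. The median width of 19p13.3 peaks in K562 was 542.5 bp, while SUP-B15 followed with 333.5 bp and DND41 was narrowest with 185.5 bp; K562 peaks were also the widest outside the bands. The difference in median percentile between band peaks and the rest of the list was 4.41 in SUP-B15, followed by REH with -1.43, and DND41 was lowest with -4.53.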

How the results depend on the processing

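No paired analysis was possible because a line has just 1 list, so no replicate numbers could pair the lines; bands and rest were paired within a list. The start of 17q25.3 at position 75300001 and the alternatives for density and for named regions were chosen after the data were seen. Of the alternative values other than those of named regions, 40 came from lineage tests over 6 lines whose smallest p, 0.0667 or 0.1, is above 0.05, so that staying above it says nothing. Of the 147 others, 107 kept direction and call, stayed within 1.5 times (counts), within the Wilson interval (share of regions that are shared) or within 1 SD (density). Of the rest, 26 moved further, 13 came to pass the threshold and 1 no longer passed it. The 13 are without adjustment. They include the width and percentile differences without SUP-B15, whose p is fixed by leaving out the only line with a positive difference. Counts of T-ALL-only and B-ALL-only regions and their background under the changes of lists and merging are given with the main result. Regions of K562, REH and SUP-B15 only were 0.543% of the band regions with equal lists (all merged regions 0.517%). They were 0% from the median score up (all 0.251%), 0.151% with the floor (all 0.149%), 0.311% with close peaks joined (all 0.230%) and 0.714% with regions merged within 500 bp (all 0.315%).

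With equal lists the 19p13.3 share difference was -0.788 percentage points (exact permutation p = 0.0286) and the width difference -16.4 bp (exact permutation p = 0.0313), and regions numbered 9 for all lines, 4 for T-ALL lines only and 3 for the 3 other lines only. With the upper part of each list, from its median score up, these were -0.690 points, -27.1 bp, 8, 6 and 0, with 9 B-ALL-only regions and 44.7% of regions shared. With a common score floor phi was 0.0631, width -27.2 bp, and 8 all-line and 5 B-ALL-only regions were left. With close peaks joined, the share difference of both bands was -1.02 points, width -39.9 bp, percentile -3.49, 19p13.3 minus 17q25.3 -7.47, and exclusive regions numbered 6 (T-ALL), 12 (B-ALL) and 2 (others). Merging regions within 500 bp gave 51.4% shared and 5, 14 and 4 exclusive regions in that order. The rest limited to Giemsa-light bands gave a width difference of -11.3 bp (exact permutation p = 0.0469), and 50% overlap of both peaks a shared-peak difference of -4.92 points. T-ALL against B-ALL lines gave phi 0.154 (exact permutation p = 0.0667, the smallest possible) and turned the 19p13.3 part of band peaks to 1.54 points.

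Leaving out each line in turn gave -1.39 to -0.746 points for the share of both bands, 0.0863 to 0.154 for phi (no such design reaches 0.05), -14.4 to -7.92 bp for width, -2.81 to -1.32 for percentile, -5.36 to -1.99 for 19p13.3 minus 17q25.3, -0.759 to -0.204 points for the 17q25.3 share, -3.71 to -0.968 points for shared peaks, -5.06 to 1.54 points for the 19p13.3 part (0.00407 without JURKAT, 0.411 without REH and 1.54 without K562), 11 to 24 T-ALL-only regions and 1 to 23 regions of the other lines only. Shares over all merged regions were not computed with a line left out, so these counts of exclusive regions have no background. Of the 30 named regions, 25 kept their number of lines with equal lists, 22 with the median score, 22 with the floor and 30 with close peaks joined. The causes were not tested. Sequencing depth is unknown and limits every statement on a missing peak.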
